A study of Drosophila melanogaster with 20 samples.

Results

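In Drosophila eye-antennal discs, 31 genes with a CG number as their symbol had less RNA in discs without Atonal (Ato). Their mean level in discs with extra Ato stayed near that of the controls. A CG number is an annotation identifier, which genes with a name carry too. For these 31 it is also the symbol in the annotation used. The genes were chosen from the measured values: a mean log2 level in Ato loss-of-function (LOF) discs at least 1 log2 unit below the mean of the controls (met by 2.5% of all genes), and a mean in Ato gain-of-function (GOF) discs within 0.25 log2 units of the controls (84.3% of all genes). Of 11982 genes measured, 5209 had a CG symbol, 97 of these met the LOF limit, and 31 of the 97 also met the GOF limits. Of the others, 38 had an Ato GOF mean more than 0.25 above the controls and 28 had one more than 0.25 below. Because these values chose the genes, the Ato LOF and Ato GOF differences of the 31 are given as a description, with no test.

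Ato is a proneural transcription factor (TF) of the basic helix-loop-helix class. In the eye disc it is active at the morphogenetic furrow, where it selects the R8 photoreceptor precursor, and R8 then recruits the other photoreceptors and the cone cells through epidermal growth factor receptor (EGFR) and Sevenless signaling. The zinc finger TF Senseless (Sens) acts after Ato in R8. Without Ato the eye part of the disc forms but its cells do not differentiate into retina, so that RNA of any gene used in R8 or in a recruited cell can be missing from such a disc. In a bulk sample of this kind, fewer cells of a type and less RNA per cell cannot be told apart.

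The arrays comprised 3 of Ato LOF discs, 6 of Ato GOF discs, 3 of Sens GOF discs and 8 of controls, all from larvae of the third instar. Ato LOF larvae were ato-/- and came from a stock that carried ato1 over a heat-shock hid chromosome. The stock was heat-shocked on 3 consecutive days so that larvae with that chromosome died, a treatment not described for the controls. No array came from other larvae of that stock. In the Ato LOF differences the loss of Ato, the background of the stock and the heat shocks therefore cannot be told apart. Ato GOF discs came from Gal4/7 × UASato larvae and from atoGal4 × UASato larvae, with 3 arrays each, and Sens GOF discs from atoGal4 × UASsens larvae. The controls were 2 arrays each of the driver lines Gal4/7 and atoGal4, of the UASato line and of wild-type CantonS, and no array of the UASsens line was among them. In these crosses the pattern of the driver decides which disc cells overexpress the TF. Rearing was at 18 °C, and the last 24 hours before dissection were spent at 28 °C. The methods of the study call the samples of a line biological or independent repeats.

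The labels were checked against known genes. The *ato* transcript itself measured 9.99, 10.35 and 10.19 on the Ato LOF arrays and 9.27 to 10.01 on the controls, so it did not mark the mutant. Transcripts of *boss*, the R8 ligand of Sevenless, lay at 4.57 to 4.99 in Ato LOF discs and at 6.17 to 6.83 in the controls, and those of *gl*, a TF of photoreceptor differentiation, at 7.34 to 8.55 in Ato LOF discs and 10.97 to 11.42 in the controls. Of the genes that specify the eye field, *toy* measured 11.84 to 11.95 in Ato LOF discs and 11.65 to 12.08 in the controls, and *ey* 9.61 to 9.76 in Ato LOF discs and 8.82 to 9.70 in the controls. In contrast *eya* was at 9.89 to 10.10 in Ato LOF discs and 11.00 to 11.72 in the controls, and *so* at 8.74 to 9.18 in Ato LOF discs and 9.63 to 10.18 in the controls. Of 108 genes in 9 lists for retinal differentiation 83 were measured and none is among the 31. In Ato LOF discs 55 of them were lower and 1 was higher by limma at an adjusted p under 0.05 (over all genes, 10.1% lower and 6.34% higher), and the lowest were *peb* at -3.55, *inaC* at -3.34 and *gl* at -3.33. Sens GOF arrays 1 and 2 were nearly the same (Pearson r 0.999 across probe sets, SD of the difference 0.15 log2 units, against 0.32 to 0.76 in every other pair of arrays of a line). The methods do not say that they share an RNA sample. They were kept as separate arrays in the main comparison, and the calls in Sens GOF discs are also given with them averaged.

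**Figure D1:**
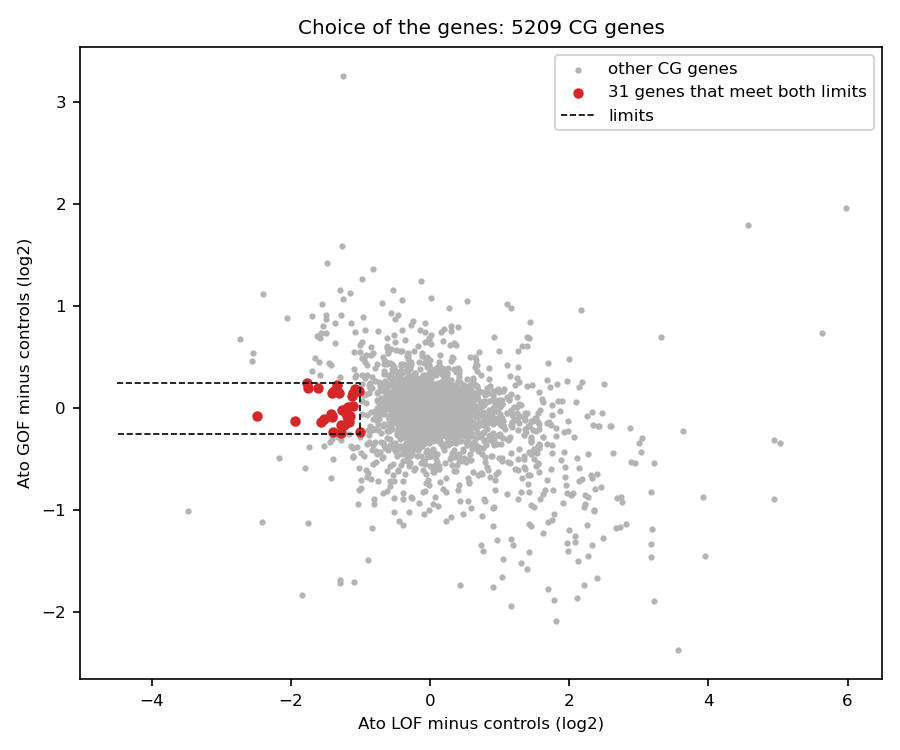
Each point is a CG gene, placed by Ato LOF minus controls (x axis, log2 units) and Ato GOF minus controls (y axis, log2 units), and the dashed lines are the limits of the choice. The 31 chosen genes (red) fill a band from -2.49 to -1.01 on the x axis, and the 38 and 28 CG genes with an equal Ato LOF limit lie above and below it.

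The 31 genes covered a wide range of array levels, which are set by the probes as well as by the amount of RNA. Their control means ran from 4.75 to 11.55 with a median of 8.07. In Ato LOF discs their means ran from 3.34 to 10.36 with a median of 6.71, and the difference from the controls ranged from -2.49 to -1.01 with a median of -1.28, against -0.02 over all genes. The highest array value in both groups was that of *CG6287*, the phosphoglycerate dehydrogenase of serine synthesis. Its Ato LOF arrays measured 10.37, 10.09 and 10.62, and its control arrays 11.32 to 11.86 with a median of 11.53.

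The deepest difference belonged to *CG31676*. On the Ato LOF arrays it measured 8.33, 8.13 and 8.11, and on the controls it ran from 10.19 through a median of 10.63 to 11.10. Its mean was thus 2.49 log2 units, or 5.61-fold, lower in Ato LOF discs, and the groups lay far apart. The 6 Ato GOF arrays of *CG31676* held between 10.53 and 10.71, inside the control range. *CG45105* followed with the tightest values of all, 4.45, 4.51 and 4.48 in Ato LOF discs against 6.13 to 6.76 (median 6.41) in the controls, a difference of -1.94. Its Ato GOF arrays ran from 5.70 to 6.69. The Ato LOF values of *CG45105* lay below the array medians, 5.38 to 5.51, as did those of *CG4382* and *CG1090*, among others. No floor of detection was set.

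Other genes near the top of the order varied more between the Ato LOF arrays. *CG12071* measured 7.14, 6.11 and 7.73 in Ato LOF discs and 8.43 to 8.98 (median 8.80) in the controls, so its arrays did not overlap although the Ato LOF SD was 0.82. *CG3097*, of the carboxypeptidase family, measured 6.75, 6.37 and 7.02 in Ato LOF discs and 7.53 to 9.28 (median 8.23) in the controls. *CG32473*, of the M1 aminopeptidase family, measured 8.88, 8.58 and 8.50 in Ato LOF discs and 10.11 to 10.43 (median 10.20) in the controls, which left a gap wider than 1 log2 unit. *CG10508* also stood clear of the controls, with 6.74, 5.94 and 7.01 in Ato LOF discs and 7.58 to 8.33 (median 7.98) in the controls. Its 2 other probe sets gave -1.42 and -1.28.

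For 4 of the 10 genes with the largest difference the arrays overlapped. *CG34347* measured 5.13, 5.41 and 5.88 in Ato LOF discs and 5.68 to 7.33 (median 7.02) in the controls, where the lowest array, CantonS replicate 1, fell below Ato LOF replicate 3. The 4 other probe sets of *CG34347* gave -0.54, -1.24, 0.00 and -0.48, so the depth of its fall depended on the probe set read. *CG12880* measured 8.98, 8.63 and 9.19 in Ato LOF discs, and its controls ran from 8.90 to 11.76 because both Gal4/7 arrays were as low as Ato LOF. *CG5171*, of the trehalose-phosphatase family, measured 4.80, 7.31 and 8.12 in Ato LOF discs and 5.49 to 10.52 (median 8.10) in the controls, and *CG4382* measured 3.12, 3.45 and 3.46 in Ato LOF discs and 3.25 to 6.79 (median 4.60) in the controls. The probe set of *CG5171* is of a kind (_s_at) that can match more than 1 transcript family.

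Over all 31 genes, the 3 Ato LOF arrays lay below all 8 controls in 19 (9.26% of all genes did so), and below all 17 other arrays in 18 (5.42% of all genes). In the other 12 at least 1 Ato LOF array reached into the control range: *CG12880*, *CG5171*, *CG34347*, *CG4382*, *CG9192*, *CG5639*, *CG1273*, *CG7906*, *CG15449*, *CG31869*, *CG3823* and *CG32354*. These counts use the contrast of the choice and are a description only. The controls of the 31 genes, whose mean was part of the choice, were also spread widely. The median distance between the highest and lowest control array was 1.30 log2 units, against 0.50 over all genes, and 8 genes exceeded 2 log2 units. *CG5171* spanned 5.03, *CG7906* 4.83, *CG4382* 3.53 and *CG9192* 3.42.

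The third Ato LOF array had the highest values for most of these genes. It was the highest of the 3 Ato LOF arrays for 25 of the 31 genes, and their median difference from the control mean was -0.97 on that array, against -1.48 on replicate 1 and -1.47 on replicate 2. A difference of -1 or lower was met by 30 genes on replicate 1, 28 on replicate 2 and 14 on replicate 3. The same counts were not made over all genes, so whether they are particular to the 31 is not known. The summed levels of several retinal lists were also highest on replicate 3, among them the R1 to R7 photoreceptor list (11.65, 11.48 and 11.77 on replicates 1, 2 and 3) and the neuronal maturation list (11.85, 11.64 and 12.21). Other lists were not, such as R8 specification (11.01, 11.25 and 11.05) and cone and pigment cells (11.32, 11.23 and 11.12). Among single genes, *sens* was lowest on replicate 3 at 4.50 (6.86 and 8.11 on the others), as were *boss* at 4.57 and *gl* at 7.34. Markers of neurons were divided. *elav* and *fne*, genes of RNA-binding proteins of neurons, were highest on replicate 3 at 8.99 and 9.21, and *fne* there lay above all its controls (7.27 to 9.08). *chp* was lowest on replicate 3 at 5.95 (7.06 and 6.28 on the others). The glial marker *repo* was also highest on that array, at 9.58 against 9.01 on replicate 1 and 8.96 on replicate 2, with controls at 8.06 to 9.54. The part of these differences in the members' values was not tested.

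**Figure D2:**
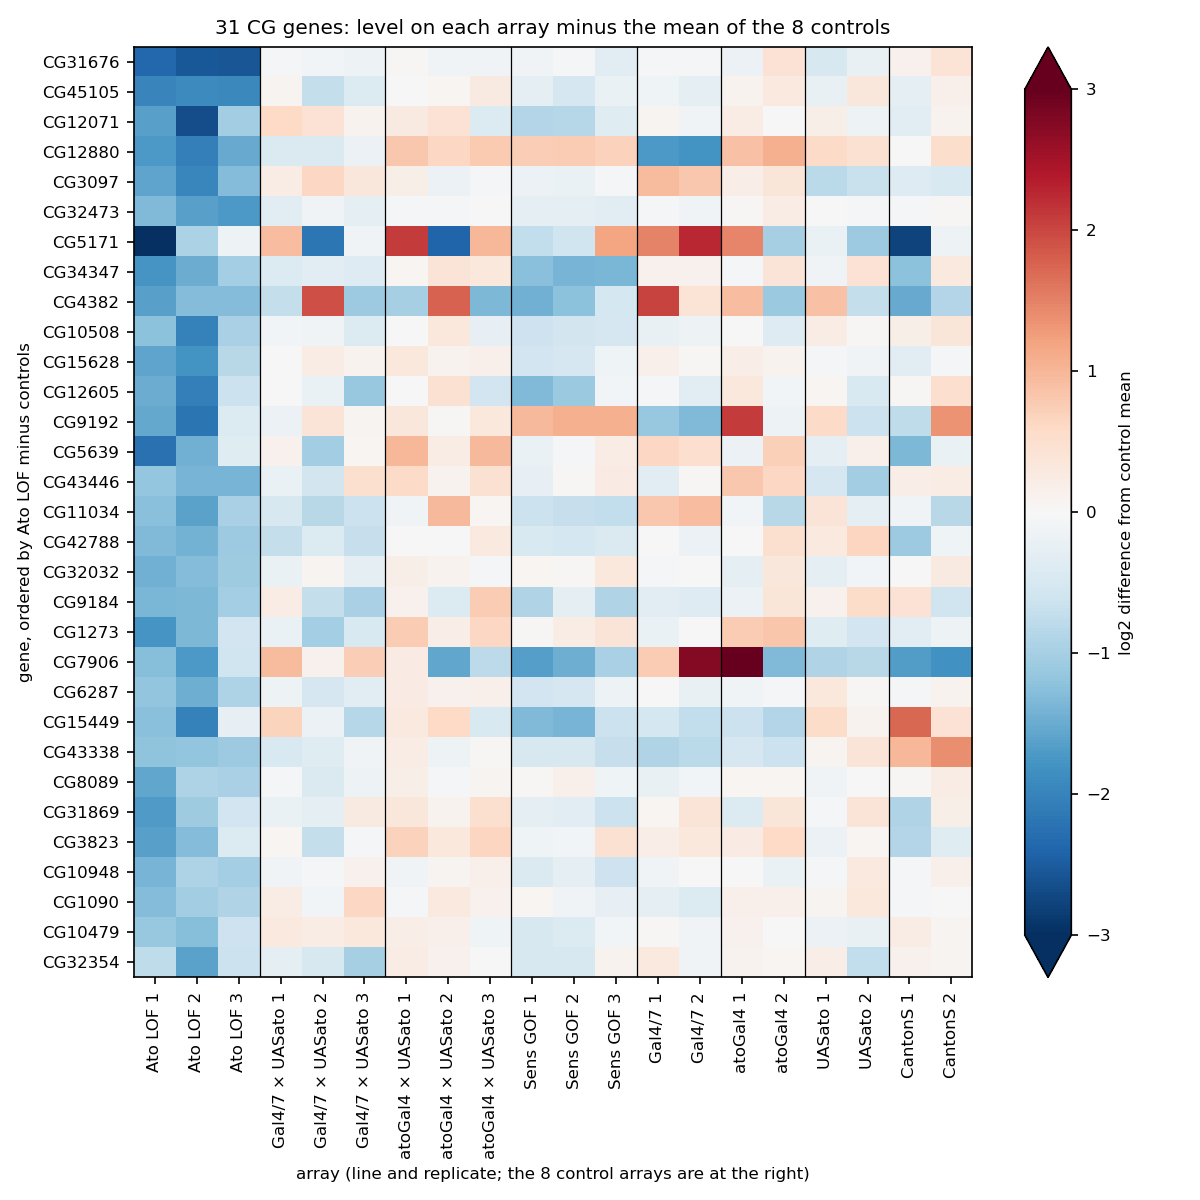
Each cell is the level of a gene (rows, ordered by Ato LOF minus controls) on an array (columns) minus the mean of the 8 controls, in log2 units from -3 (blue) to 3 (red). The 3 Ato LOF columns at the left are blue in nearly every row and palest on replicate 3, and the rows of CG5171, CG4382, CG9192 and CG7906 change colour within the control lines at the right.

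The depth of the fall also depended on the control line. Against Gal4/7 alone, 23 of the 31 genes were at -1 or lower (4.43% of all genes). The count was 27 against atoGal4 (3.0%), 24 against UASato (2.93%) and 21 against CantonS (2.64%). Only 9 genes met -1 against every line, a count with no share over all genes computed. Likewise without such a share, the Ato LOF mean was below the mean of every line in 30, which the limit of the choice itself favors. The exception was *CG7906*, whose Ato LOF mean was 0.53 above that of CantonS and 2.96 below that of Gal4/7. Its arrays measured 6.93, 6.48 and 7.60 in Ato LOF discs, 8.96 and 10.96 in Gal4/7, 11.23 and 6.88 in atoGal4, 7.30 and 7.38 in UASato and 6.54 and 6.40 in CantonS. In *CG7906* 3 of the 8 control arrays were thus at 8.96 or higher, and the other 5 were at 7.38 or lower.

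Of the 21 genes ranked below the first 10, the differences ran from -1.40 to -1.01. *CG15628* measured 7.26, 7.03 and 7.99 in Ato LOF discs and 8.51 to 9.04 in the controls, and *CG32032* 8.38, 8.53 and 8.77 in Ato LOF discs against 9.56 to 10.17 in the controls, both without overlap. *CG1090*, of the potassium-dependent sodium/calcium exchanger family, measured 3.50, 3.75 and 3.89 in Ato LOF discs and 4.40 to 5.12 in the controls, also without overlap. Another probe set of *CG15628*, dimmer, gave 0.08, and that of *CG42788* gave -0.33. The remaining genes without overlap were *CG12605*, *CG43446*, *CG11034*, *CG42788*, *CG9184*, *CG6287*, *CG43338*, *CG8089*, *CG10948* and *CG10479*, with differences of -1.39 to -1.02. *CG9192* was among the least even, with 6.76, 6.12 and 7.90 in Ato LOF discs and 6.98 to 10.41 in the controls. At the Ato LOF limit, *CG1090* (-1.08), *CG10479* (-1.02) and *CG32354* (-1.01) lay just inside, and *CG2269*, *CG42369* and *CG31999* (each -0.98) just outside. At the upper GOF limit, *CG12880* (0.20), *CG5639* (0.22) and *CG12071* (0.24) lay just inside and *CG33232* (0.30), *CG4596* (0.31) and *CG3408* (0.32) just outside. At the lower GOF limit, *CG42788* (-0.247), *CG12605* (-0.24) and *CG32354* (-0.23) lay just inside and *CG34355* (-0.25004), *CG5618* (-0.28) and *CG4928* (-0.29) just outside.

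In the RefSeq annotation of Drosophila melanogaster (assembly GCF_000001215.4), all 31 were found. None of their 62 nearest neighbours on either side is one of the 31, which are few among the 11982 genes measured. Of the 52 neighbours that were measured none had an Ato LOF difference of -1 or lower, a limit met by 2.5% of all genes. At so small a share, none among 52 does not set the neighbours apart from other genes. The nearest to the limit were *gcm2* beside *CG4382* at -0.99 and *nebu* beside *CG10948* at -0.98. The median of the neighbours was -0.07, against -0.02 over all genes. Of the 62 neighbours, 10 overlap a member, a count not made for other genes.

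An Ato GOF mean near the controls did not hold for each driver by itself. With atoGal4 the 31 genes ranged from -0.70 to 0.74 around the controls with a median of 0.12, and with Gal4/7 from -0.65 to 0.60 with a median of -0.22. Both drivers were within 0.25 of the controls in 9 of the 31 genes, against 73.6% of all genes. In 6 genes the drivers lay on opposite sides of the controls, each by more than 0.25 (1.6% of all genes). All 6 Ato GOF arrays fell inside the control range in 14 genes (37.8% of all genes). In 25 of the 31 genes the atoGal4 × UASato mean was above the Gal4/7 × UASato mean, which held for 48.8% of all genes, and the driver lines without UASato were in the same order in 20 of the 31 (61.0% of all genes). These comparisons share the 8 controls with the Ato LOF values.

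**Figure D3:**
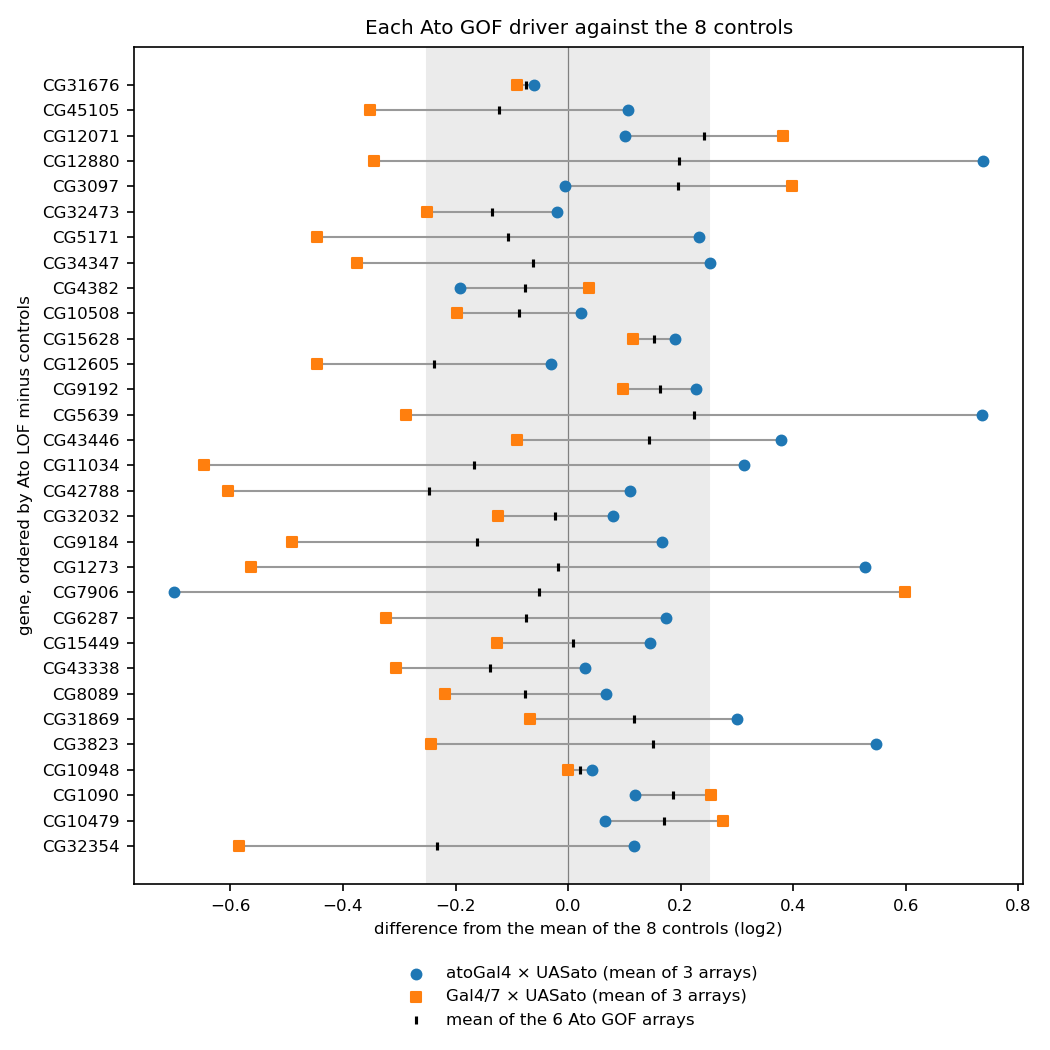
For each gene (rows) the mean of 3 atoGal4 × UASato arrays (blue circle) and of 3 Gal4/7 × UASato arrays (orange square) is drawn as a difference from the mean of the 8 controls in log2 units, with the mean of all 6 as a black tick and the grey band at 0.25 on either side of 0. All ticks lie in the band by choice, while the circles reach 0.74 and the squares -0.65.

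The 6 genes divided by driver included *CG5639*. It measured 9.25, 8.48 and 9.22 in atoGal4 × UASato discs and 8.39, 7.20 and 8.30 in Gal4/7 × UASato discs, with controls at 6.90 to 8.95. *CG11034* measured 6.18, 7.26 and 6.34 in atoGal4 × UASato discs, 5.80, 5.46 and 5.64 in Gal4/7 × UASato discs and 5.44 to 7.20 in the controls. In each gene the control arrays overlapped those of both drivers.

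The change under atoGal4 (cross minus driver line) was therefore set against the change under Gal4/7. The choice of genes had used the means of these arrays but not this difference, so the arrays are not independent of the choice. In 1 gene, *CG12880*, the change under atoGal4 was lower (0.0751% of all genes) and in none was it higher (0.00835%), by limma at an adjusted p under 0.05. Without adjustment 3 were lower (6.46% of all genes) and 4 higher (2.45%) at p under 0.05. *CG12880* measured 11.50, 11.32 and 11.47 in atoGal4 × UASato discs and 11.57 and 11.76 in atoGal4 discs. In Gal4/7 × UASato discs it measured 10.26, 10.27 and 10.50, and in Gal4/7 discs 8.97 and 8.90. The cross thus lay below its driver line with atoGal4 and above it with Gal4/7, and the difference of the changes was -1.65 (SE 0.15, limma adjusted p = 0.0147).

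The sign of that value came from the Gal4/7 line. Compared directly, atoGal4 × UASato discs were 1.08 log2 units above Gal4/7 × UASato discs in *CG12880* (limma adjusted p = 0.0099), the only 1 of the 31 called in this comparison (0.451% of all genes higher, 0.643% lower). The call on the difference of changes was lost with the replicate number as a block (adjusted p = 0.0752), without atoGal4 replicate 2 (adjusted p = 0.0625) and without atoGal4 × UASato replicate 2 (adjusted p = 0.0650). Larger values did not pass, among them 2.29 for *CG11034* (adjusted p = 0.167) and 2.32 for *CG5171* (adjusted p = 0.806). In simulated data this comparison recovered 40% of 2-fold and 84% of 3-fold changes, and most smaller ones were missed.

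The 8 control arrays, whose mean was part of the choice, were also compared with each other. A control line with high values raises that mean and so can favor the choice of a gene. The counts of genes that differed among the lines, or in CantonS, are therefore not independent of the choice. The control lines differed in 4 of the 31 genes by a limma F test over the 4 lines (0.818% of all genes): *CG3097* (adjusted p = 0.0094), *CG12880* (adjusted p = 0.0107), *CG43338* (adjusted p = 0.0169) and *CG1273* (adjusted p = 0.0343). Without adjustment 9 of the 31 were at p under 0.05 (11.3% of all genes). *CG3097* was highest in Gal4/7 at 9.28 and 9.14, followed by 8.54 and 8.70 in atoGal4, 7.93 and 7.87 in CantonS and 7.53 and 7.65 in UASato. *CG1273* was highest in atoGal4 at 8.87 and 8.94, and its other 3 lines lay together between 7.53 and 8.10. None of the 4 calls remained without UASato replicate 1 or without UASato replicate 2, 2 calls remained without Gal4/7 replicate 2 or without atoGal4 replicate 1, and 1 remained without atoGal4 replicate 2.

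*CG43338* was the 1 gene that set CantonS apart from the 3 transgenic lines (0.167% of all genes higher, 0.209% lower). It measured 6.73 and 7.12 in CantonS, 5.83 and 6.11 in UASato, 5.23 and 5.09 in atoGal4 and 4.84 and 4.93 in Gal4/7. CantonS was 1.59 log2 units higher than the mean of the other lines (SE 0.14, limma adjusted p = 0.0206), with both of its arrays above all 6 others. Without adjustment 4 of the 31 were higher (7.08% of all genes) and 5 lower (4.01%) in CantonS at p under 0.05. The call was lost when either array of CantonS, UASato or atoGal4 was left out, with adjusted p of 0.0594 to 0.0860. The Ato LOF arrays of *CG43338*, at 4.53, 4.55 and 4.65, were 2.35 below CantonS but 0.31 below Gal4/7.

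In 3 of these genes each cross lay between its parents. *CG12880* averaged 10.35 in Gal4/7 × UASato discs, with its parents at 8.93 (Gal4/7) and 11.21 (UASato), and 11.43 in atoGal4 × UASato discs, with the atoGal4 parent at 11.67. *CG3097* averaged 8.73 in Gal4/7 × UASato discs between 9.21 and 7.59 in these parents, and 8.32 in atoGal4 × UASato discs, where the atoGal4 parent was at 8.62. *CG43338* averaged 5.43 in Gal4/7 × UASato discs between 4.88 and 5.97, and 5.76 in atoGal4 × UASato discs, with the atoGal4 parent at 5.16. All 3 arrays of both crosses lay between the parent means in these genes. Over the 31 genes this held for 4 with Gal4/7 (7.58% of all genes) and for 7 with atoGal4 (8.37%). It was seen after the values and was not tested.

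**Figure D4:**
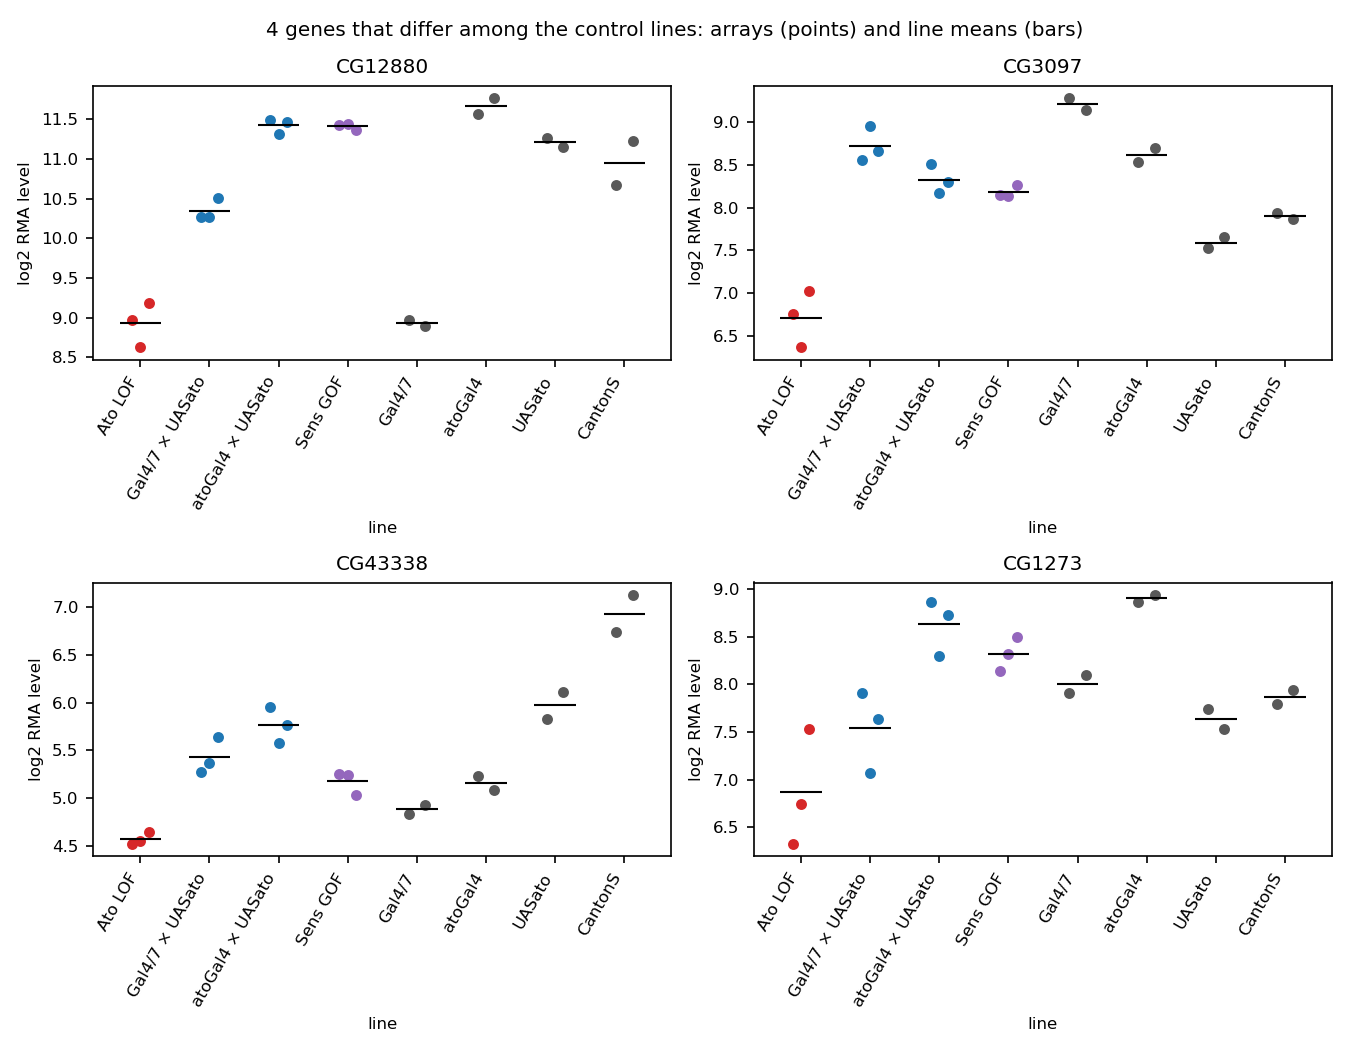
Each panel is 1 gene, each point an array and each bar the mean of a line, in log2 RMA units. Both crosses with UASato lie between their driver line and UASato in CG12880, CG3097 and CG43338, and the Gal4/7 arrays of CG12880 are as low as Ato LOF.

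The limits of the choice did not use the Sens GOF arrays, although they used the same controls, and the choice of the brightest probe set of a gene used the mean over all 20 arrays. Transcripts of *sens* were 3.59 log2 units higher in Sens GOF discs than in the controls, transgene included. Of the 31 genes, 4 were lower (2.21% of all genes) and none was higher (1.7%) in Sens GOF discs by limma at an adjusted p under 0.05. Without adjustment 11 were lower and none was higher at p under 0.05 (10.3% and 9.6% of all genes). With arrays 1 and 2 averaged none of the 31 was lower (0.342% of all genes) or higher (0.259%). The median difference of the 31 was -0.33, against -0.01 over all genes, and 24 of the 31 means were below the controls, as were 51.0% of all genes. A control mean that is high by error favors the choice of a gene and also lowers its Sens GOF difference. The Sens GOF values and calls are therefore not independent of the choice.

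*CG34347* differed most among the 4. It measured 5.65, 5.51 and 5.53 in Sens GOF discs and 5.68 to 7.33 (median 7.02) in the controls, a difference of -1.34 (SE 0.29, limma adjusted p = 0.0301), or adjusted p = 0.130 with arrays 1 and 2 averaged. Its Sens GOF arrays were all below the lowest control and within the range of its Ato LOF arrays, 5.13 to 5.88. *CG12071* measured 7.90, 7.92 and 8.41 in Sens GOF discs and 8.43 to 8.98 (median 8.80) in the controls. The difference was -0.69 (SE 0.14, limma adjusted p = 0.0226), or adjusted p = 0.140 with the arrays averaged, and its array 3 lay just under the lowest control.

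*CG10948* measured 8.41, 8.56 and 8.22 in Sens GOF discs and 8.64 to 9.14 (median 8.80) in the controls, a difference of -0.44 (SE 0.11, limma adjusted p = 0.0473), or adjusted p = 0.127 averaged. *CG32473* measured 9.93, 9.93 and 9.88 in Sens GOF discs and 10.11 to 10.43 (median 10.20) in the controls, a difference of -0.31 (SE 0.07, limma adjusted p = 0.0383), or adjusted p = 0.143 averaged. In both genes the groups did not overlap, and the Ato LOF arrays were lower still. The 3 Sens GOF arrays lay below all 8 controls in these 4 genes and in *CG10508* (4.67% of all genes), and in none above them all (4.2%). *CG10508* measured 7.36, 7.43 and 7.47 in Sens GOF discs against 7.58 to 8.33 in the controls (-0.55, limma adjusted p = 0.0563).

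**Figure D5:**
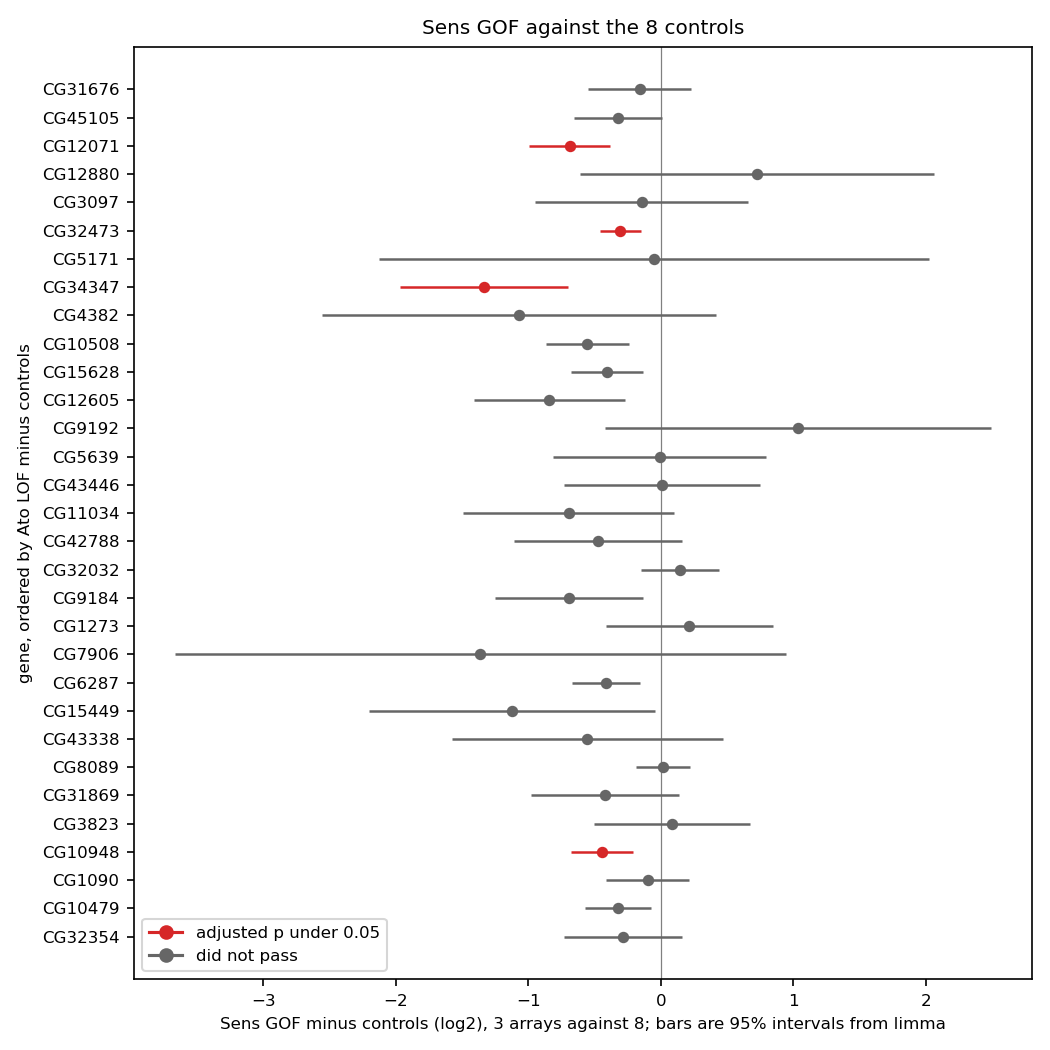
Points are Sens GOF minus controls in log2 units for each gene (rows, ordered by Ato LOF minus controls), and bars are 95% intervals from limma over 3 arrays against 8. The 4 genes with an adjusted p under 0.05 (red) are CG12071, CG32473, CG34347 and CG10948, and the widest intervals belong to CG7906, CG5171 and CG4382.

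No call was made for the gene with the deepest Ato LOF difference. *CG31676* measured 10.58, 10.62 and 10.35 in Sens GOF discs and 10.19 to 11.10 (median 10.63) in the controls. The difference was -0.16 with a 95% interval from -0.55 to 0.23. The -2.49 of Ato LOF discs chose the gene and uses the same controls, and it was not tested against the Sens GOF difference. The interval of *CG31676*, like the others here, counts Sens GOF arrays 1 and 2 as separate. With them averaged the difference of *CG31676* was -0.20 (limma adjusted p = 0.767). For *CG8089* the difference was 0.02 (95% interval -0.19 to 0.22) and for *CG32032* 0.14 (-0.15 to 0.44). At the other end *CG7906* had -1.36 (-3.67 to 0.94) and *CG9192* 1.04 (-0.42 to 2.49), intervals that leave the direction unknown. In simulated data the Sens GOF comparison recovered 64% of 1.5-fold and 88% of 2-fold changes. The simulated arrays had no differences between control lines and no near-identical pair. Recovery for genes whose control lines differ was thus not measured and can be lower.

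The calls in Sens GOF depended on single arrays. None of the 4 remained without Sens GOF replicate 1 or without Sens GOF replicate 2, 1 remained without CantonS replicate 2, Gal4/7 replicate 1, UASato replicate 1 or UASato replicate 2, and 2 remained without atoGal4 replicate 1. Against the 2 atoGal4 controls alone, 1 gene was called, *CG34347*. Of the 83 genes of retinal differentiation, 13 were lower (2.21% of all genes) and 1, *sens*, was higher (1.7%) in Sens GOF discs. With arrays 1 and 2 averaged 1 was called (0.342% of all genes lower, 0.259% higher). The CG genes with the same Ato LOF limit but another Ato GOF mean had, side by side and untested, a median Sens GOF difference of -0.19 with 3 of 38 lower (Ato GOF above 0.25) and of -0.49 with 2 of 28 lower (Ato GOF below -0.25). Over all genes 2.21% were lower.

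Markers of tissues that lie beside the disc were present on the arrays in amounts that changed from array to array. The summed level of the 4 measured of 7 fat body genes was 15.84 to 16.19 in Ato LOF discs, 10.41 to 15.97 in Ato GOF discs, 15.31 to 15.56 in Sens GOF discs and 14.20 to 15.98 in the controls (log2 of the sum). For all 7 salivary gland genes it was 13.05 to 16.16 in Ato LOF discs, 8.15 to 16.64 in Ato GOF discs, 15.23 to 16.71 in Sens GOF discs and 8.65 to 16.57 in the controls. None of these genes passed the test in Ato LOF discs. Of the 7 hemocyte genes 1, *NimC1*, was lower (10.1% of all genes), at 5.46 to 6.28 against 7.34 to 8.34 in the controls. Of 8 measured glial genes 4 were lower in Ato LOF discs (10.1% of all genes), with a summed level of 12.33 to 12.61 against 12.78 to 13.06 in the controls. *CG5171*, *CG4382*, *CG7906* and *CG9192* also changed by several log2 units within lines, and the part of these tissues in their values was not tested.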

How the data were processed

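RNA of eye-antennal discs was hybridized to Affymetrix Drosophila 2.0 arrays, 20 in all. Values are on the log2 scale as the authors deposited them, after RMA (background correction, quantile normalization and probe set summary), whose version is not given in the sources used here. Array medians were 5.38 to 5.51, and the number of arrays limits the precision. Of the probe sets 183 controls were left out and 18769 tested: 13647 name 1 gene, 402 several, and 4720 are unnamed here. The brightest probe set that names only a gene represents it. Groups follow the labels, with replicate numbers from sample titles.

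Comparisons were fitted with limma 3.58.1 (lmFit, eBayes) in R 4.3.3 over the arrays compared, with Benjamini-Hochberg adjustment over all probe sets, and were tested on simulated data. Python 3.11.15 and matplotlib 3.10.9 made summaries and plots. The genes and lists were chosen with earlier results of these data known. Genes given array by array are the 10 lowest in Ato LOF, those called, those at the limits of the choice, and some named after their values were seen (*CG7906*, *CG9192*, *CG6287*, *CG5639*, *CG11034*, *CG15628*, *CG32032*, *CG8089* and, from the F test, *CG3097* and *CG1273*). The alternatives tried were other limits, controls, filters, normalization, variance models and blocks, and leaving out arrays.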

Additional observations from a re-analysis of the deposited data

Results flagged for a closer look

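*CG34347* was flagged because CantonS replicate 1, at 5.68, lay far below the other 7 control arrays, the nearest at 6.80. *CG5639* was flagged for the same array, at 6.90 with the next control at 7.99. In *CG32354* UASato replicate 2 was far below the other controls, at 7.33 with the next at 7.96. In *CG32473* atoGal4 replicate 2 was far above the other controls, at 10.43 with the next at 10.26. These are 4 of 62 groups of arrays, and chance flags about 1 in 20, or 3.1 here.

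*CG12880* was flagged because its change under atoGal4 differed from its change under Gal4/7, by -1.65 on the log2 scale.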

How the results depend on the processing

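With an Ato LOF limit of -0.8 the rule took 50 genes, the 31 included, and with 1 of 17 arrays left out 26 to 44. Against CantonS only it took 23 genes, 12 of them among the 31, and with medians in place of means 31 genes, 20 of them shared. *CG31676*, *CG45105*, *CG32473*, *CG34347*, *CG10508*, *CG15628*, *CG32032* and *CG6287*, 8 in all, were chosen whichever array was left out. For genes lower in Sens GOF, the 4 calls became 0 with arrays 1 and 2 averaged (added after the values were seen), 0 at adjusted p under 0.01, 1 with a 2-fold limit, 1 with atoGal4 controls only, 1 with the line as a random block, and 0 to 5 with 1 array left out. In 1 fit of all 20 arrays 1 gene was higher in Sens GOF (*CG12880*) and 2 differed between drivers (*CG12880* and *CG11034*). Leaving out 1 array gave 0 to 0 genes higher in Sens GOF, 0 to 1 with a driver difference, 0 to 4 that differed among control lines and 0 to 1 in CantonS. The CantonS call was 0 when probe sets under the median level were left out. The driver difference of *CG12880* had the opposite sign, 1.08, when the drivers were compared directly. The genes of the retinal lists numbered 32 in Ato LOF against CantonS only, and 49 to 57 with 1 array left out. In Sens GOF they numbered 1 with atoGal4 controls only, 1 with arrays 1 and 2 averaged and 0 to 24 with 1 array left out. The cause of these changes was not tested.

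The values do not settle whether the replicate numbers pair the samples: 27 of 62 same-numbered pairs had a correlation of deviations over 0.1 (range -0.40 to 0.53). Between control lines same-numbered arrays had correlations of 0.00 to 0.29, and between atoGal4 and atoGal4 × UASato -0.33 and -0.38. In a line of 2 arrays the deviations mirror each other, so these pairs are not independent. With the number as a replicate block 2 members were lower in Sens GOF, 1 of them among the 4, 0 had a driver difference, and 8 list genes were called in Sens GOF.

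Limits: 2 arrays per control line and near-identical Sens GOF arrays 1 and 2 limit every test. Over the alternatives, the adjusted p of the 4 genes lower in Sens GOF ranged over 0.00874 to 0.148 (*CG12071*), 0.000439 to 0.135 (*CG34347*), 0.0232 to 0.161 (*CG32473*) and 0.0237 to 0.345 (*CG10948*). That of *CG12880* ranged over 0.00181 to 0.0752.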
